A study of Mus musculus with 10 samples.

Results

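The nuclear genes of oxidative phosphorylation were compared between endothelial-gate cells of mouse lung metastases and of normal lung. A gene was a member if its symbol in the count files named a subunit family of respiratory complexes I to V, that is if it began with Nduf followed by a, b, c, s or v, with Uqcr, with Cox4 to Cox8 or with Atp5, or was Sdha, Sdhb, Sdhc or Sdhd. This gave 93 members among 24538 genes, of which 81 passed the filter on low counts and were among the 11823 genes tested. By symbol the members were 36 subunits and 8 assembly factors of complex I, 4 subunits of complex II, 8 of complex III, 19 of complex IV and 15 of complex V, and 3 genes that are no subunits (Cox7a2l, Atp5s and Atp5sl). The metastasis group held 5 libraries of CD31+/CD45- cells from wild type C57BL6/J females that had received E0771-LG mouse mammary tumour cells by tail vein at 6 to 8 weeks of age. The normal lung group held 5 libraries of CD31+/CD45- cells from normal lungs of the same strain and genotype, and both groups carry an age label of 8 to 10 weeks. What the normal lung mice received is not in the labels. CD31 marks endothelium and CD45 marks leukocytes. Metastases under 1 mm across were cut out and those of 2 to 4 mice were put together, so a metastasis library is a pool, and transcription inhibitors were present during digestion in both groups. The labels do not say which libraries came from separate animals, so p-values measure the spread between these libraries.

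The respiratory chain sits in the inner mitochondrial membrane. Complexes I and II pass electrons from NADH and succinate to ubiquinone, complex III passes them on to cytochrome c and complex IV to oxygen, and complexes I, III and IV pump protons. Complex V, the ATP synthase, lets the protons back through a membrane rotor (Fo) and makes ATP in its matrix head (F1). Most subunits are encoded in the nucleus and a few by mitochondrial DNA, and the mitochondrially encoded genes were not analysed here. Endothelial cells are known for drawing much of their ATP from glycolysis.

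Counts assigned to genes came to 21.7 to 54.3 M per metastasis library and 41.0 to 79.7 M per normal library, so a count of 0 (up to 3 counts) allows at most 0.149 CPM (counts scaled to library size) in a metastasis library and 0.0810 CPM in a normal one. These limits cover counting error only. Cell type markers differed between the groups. All 10 endothelial markers were detected in both groups and were lower in metastases, with a summed level of 804 to 5058 CPM in metastases and 9951 to 20845 CPM in normal lung. Of the other markers tested, 5 of 5 fibroblast, 4 of 7 leukocyte, 2 of 4 platelet, 1 of 3 epithelial and 6 of 6 cell division genes were higher in metastases. Fibroblast markers summed to 323 to 906 CPM in metastases and 6.08 to 59.1 CPM in normal lung, and leukocyte markers to 941 to 1815 CPM in metastases and 64.6 to 241 CPM in normal lung. Platelet markers summed to 670 to 12105 CPM in metastases and 182 to 875 CPM in normal lung, and epithelial markers to 15.3 to 67.8 CPM in metastases and 1.17 to 23.4 CPM in normal lung. Cell division genes summed to 1259 to 2428 CPM in metastases and 19.9 to 117 CPM in normal lung. No erythrocyte marker was tested, and the globin genes Hba-a1, Hba-a2, Hbb-bs and Hbb-bt were at 0 in all 10 libraries. The fifth, Alas2, a haem synthesis enzyme of red cell precursors, was at 0.0290 to 0.198 CPM in metastases and 0 to 8.62 CPM in normal lung. The part of these cells in the results was not tested, and in bulk samples fewer cells of a type and less RNA per cell cannot be told apart.

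Of the 81 tested members, 5 were higher in metastases and none was lower. The 5 were Atp5b, Atp5a1 and Atp5c1 of the ATP synthase head, Cox5a of complex IV and Ndufa12 of complex I. A gene was called where edgeR's quasi-likelihood test gave a Benjamini-Hochberg adjusted p under 0.05 over all tested genes. The share of members called higher, 6.17%, lay below the 12.0% of all tested genes called higher in the same fit, and 8.22% of all tested genes were called lower. At an unadjusted p under 0.05, 7 members were higher (Ndufb7 and Uqcr10 in addition) and none was lower, beside 17.7% and 13.7% of all tested genes. The estimated log2 fold change, metastases over normal lung, was positive in 50 members (61.7%, against 51.5% of all tested genes) and negative in 31. Its median was 0.47 over the members and 0.06 over all tested genes. The groups did not overlap in 1 member on the higher side, Atp5b (8.50% of all tested genes), and in 1 on the lower side, Ndufb8 (6.17% of all tested genes).

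Which members were called depended on the libraries and the tool. The number called higher was 3 without metastasis replicate 1, 2 without metastasis replicate 4, 3 without metastasis replicate 5 and 2 (Atp5b and the otherwise filtered Cox7b2) without any 1 of normal replicates 2, 3 and 4. Of all genes, 11.7, 10.9, 10.7, 11.7, 10.7 and 11.1% were called higher in these 6 fits, in that order. In normal lung, libraries 1 and 2 held a larger share of the ribosomal precursor Rn45s (3.51 and 2.83% of counts) than libraries 3 to 5 (0.408 to 0.469%). In metastasis libraries 1 to 5 the share was 1.45, 4.61, 0.647, 1.04 and 1.24%, so library 1 lay close to library 5. Libraries 1 and 2 alone gave no call in edgeR (0 higher and 0 lower), where 3.87% of all genes were called higher and 1.6% lower. At an unadjusted p under 0.05 that fit had 4 members higher and 1 lower. The share of all genes at that threshold was not counted in that fit. Libraries 3 to 5 alone gave 2 higher, Atp5a1 and Atp5b, where 9.29% of all genes were called higher. DESeq2 called 13 members higher and 2 lower, where it called 14.1% and 9.84% of all genes, and its 15 calls held all 5 of edgeR's. Limma on log2(FPKM + 1), where 1 is the pseudocount, called 11 higher and 1 lower (13.1% and 12.3% of all genes) and also held these 5.

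**Figure D1:**
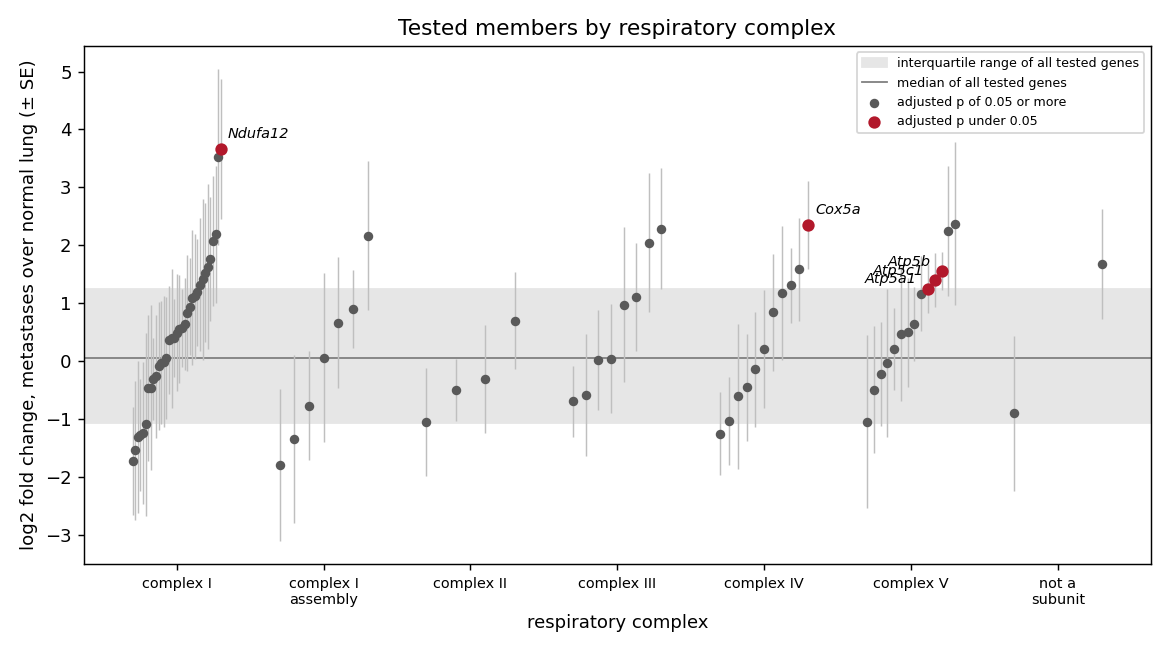
Log2 fold change of each tested member, metastases over normal lung, on the vertical axis with its SE as a bar, sorted within each respiratory complex on the horizontal axis. Red points mark the 5 members with an adjusted p under 0.05, 3 of them in complex V, and the grey band is the interquartile range of all 11823 tested genes, with their median of 0.06 as a line.

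Complex V held 3 of the 5 called members, and all 3 belong to its F1 head. The 5 F1 genes (alpha, beta, gamma, delta and epsilon) had a median log2 fold change of 1.40 with 3 called higher by edgeR. The other 9 tested subunits had a median of 0.47 with none called by edgeR. The F1 genes had a median level of 121 CPM and a median SE of 0.46, against 7.49 CPM and 1.10 for the other 9. The part of level and SE in the difference in calls was not tested. The planned groups were the complexes, and the split of complex V was added to them. Atp5b encodes the beta subunit, which carries the catalytic sites. It had 2272, 1349, 1877, 1630.0 and 1433 CPM in metastasis libraries 1 to 5, against 571, 416, 685, 546 and 689 CPM in normal libraries 1 to 5. Every metastasis library lay above every normal library. The gene (GRCm38, chr10:128083273-128090391, plus strand) averaged 1712 ± 373 CPM in metastases and 582 ± 113 CPM in normal lung (SD, n = 5 each). That was 2.94-fold higher in metastases (log2 fold change 1.56 ± 0.33 SE, edgeR adjusted p = 0.00154). No tested member had a smaller SE, and the call held without any single library (adjusted p 0.00198 to 0.00758). In libraries 1 and 2 alone the value was 1.89 with an adjusted p of 0.0512.

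Atp5b was by far the most abundant member. Per transcript length it stood at 1313 ± 441 FPKM (fragments scaled by transcript length and depth) in metastases and 478 ± 152 FPKM in normal lung (SD, n = 5 each), rank 15 in metastases and rank 83 in normal lung by mean FPKM of 24460 genes. Its share of all counts on the 93 members was 53.2, 42.0, 49.0, 44.6 and 40.0% in metastasis libraries 1 to 5, against 23.9, 27.2, 35.2, 27.1 and 34.6% in normal libraries 1 to 5. The groups did not overlap in this share either, which does not depend on library scaling. Because 1 transcript held so much of the summed level, sums over members are given with and without it below.

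Atp5a1 encodes the alpha subunit, which alternates with beta in the F1 ring (chr18:77773729-77782869, plus strand). It had 231, 254, 206, 343 and 299 CPM in metastasis libraries 1 to 5, against 226, 83.5, 72.0, 93.5 and 83.0 CPM in normal libraries 1 to 5. Normal library 1 lay inside the range of the metastases and the other 4 normal libraries lay below it. The means were 267 ± 54.8 CPM in metastases and 112 ± 64.3 CPM in normal lung (SD, n = 5 each), 2.39-fold higher in metastases (1.26 ± 0.42 SE, edgeR adjusted p = 0.0375). The call was lost without any 1 of metastasis replicates 4 and 5 and normal replicates 2 to 5 (adjusted p 0.0710 to 0.106).

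Atp5c1 encodes the gamma subunit, the shaft that turns inside the ring (chr2:10056016-10080510, minus strand). It had 204, 87.8, 101, 227 and 259 CPM in metastasis libraries 1 to 5, against 58.2, 63.1, 57.6, 65.6 and 88.7 CPM in normal libraries 1 to 5. Metastasis library 2 lay just below normal library 5, and the other 4 metastasis libraries lay above all normal ones. The means were 176 ± 77.2 CPM in metastases and 66.6 ± 12.8 CPM in normal lung (SD, n = 5 each), 2.64-fold higher in metastases (1.40 ± 0.46 SE, edgeR adjusted p = 0.0334). The call was lost without any 1 of metastasis replicates 4 and 5 and normal replicates 1 to 4 (adjusted p 0.0693 to 0.113). Metastasis libraries 4 and 5 held the highest levels of Atp5a1 and of Atp5c1, and they also held the lowest summed endothelial level (1329 and 804 CPM). Without both, Atp5a1 was at 1.02 (adjusted p = 0.192), Atp5c1 at 0.94 (0.311) and Atp5b at 1.62 (0.00404). The part of the endothelial share in these values was not tested.

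**Figure D2:**
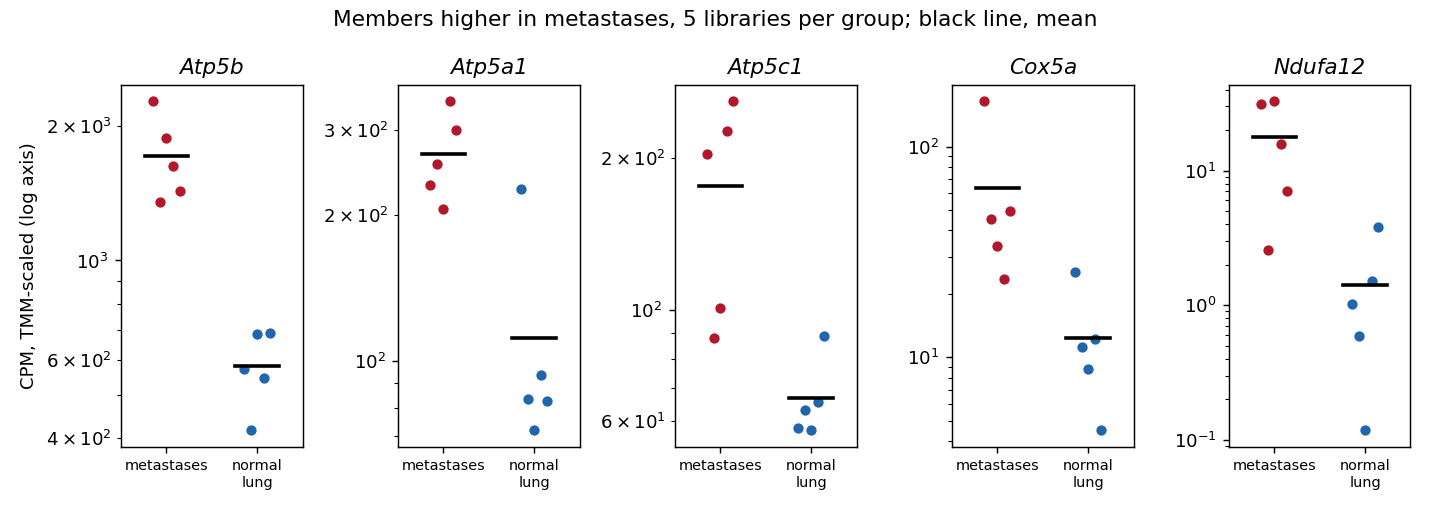
CPM on TMM-scaled libraries (vertical log axis, scaled separately in each panel) of the 5 members called higher, with each library as a point, metastases in red on the left and normal lung in blue on the right, and the group mean as a black line. The groups are fully apart in Atp5b only, and in each of the other 4 genes a single library of 1 group reaches into the range of the other.

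The proportions among the 3 called F1 genes overlapped between the groups. The FPKM of Atp5b over that of Atp5a1 was 9.58 ± 3.74 in metastases and 8.94 ± 4.11 in normal lung, and over that of Atp5c1 it was 9.76 ± 4.45 in metastases and 9.23 ± 2.04 in normal lung (SD, n = 5 each). These differences were smaller than the spread within either group. The remaining F1 genes were not called by edgeR. Atp5e, the epsilon subunit, averaged 20.6 ± 17.1 CPM in metastases and 4.32 ± 5.48 CPM in normal lung (2.25 ± 1.12 SE, edgeR adjusted p = 0.171), and DESeq2 called it (2.28, 0.0433). Atp5d, the delta subunit, was at -0.22 with an adjusted p of 0.903.

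Among the membrane rotor and stalk genes of complex V edgeR called none. Atp5g3, whose mature product is the c subunit of the rotor ring, had 90.8, 56.8, 51.4, 27.3 and 106 CPM in metastasis libraries 1 to 5, against 53.2, 31.7, 30.8, 10.6 and 21.2 CPM in normal libraries 1 to 5. The ranges overlapped (1.17 ± 0.64 SE, edgeR adjusted p = 0.221), and limma on log2(FPKM + 1) called it (1.28, 0.0431). Atp5g1, a second gene of the same subunit, averaged 4.26 ± 3.33 CPM in metastases and 0.816 ± 0.920 CPM in normal lung (2.38 ± 1.40 SE, edgeR adjusted p = 0.259), and DESeq2 called it (2.46, 0.0409). Atp5h, the d subunit of the stalk, was at -0.48 (0.806). Atp5l, a small membrane subunit, was at -1.04 (0.687), and 69.0% of the 100-base windows of its transcript also occur in transcripts of other genes, so its counts are uncertain.

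The promoters of the called members are shown because 3 of the 5 encode parts of the same F1 head. Motifs were searched as exact letters on both strands in RefSeq windows from 250 bases before to 50 bases after each gene's start (GRCm38.p6), in which 77 of the 93 members were found. The letters were GCGC, any base and TGCGC (NRF1), CCGGAAG (ETS factors such as GABP), AAGATGGC (YY1), GGGCGG (SP factors), CCAAT (NF-Y) and TGACCTTG (ERR), and no matches overlapped in the windows shown. Lower case is flanking sequence and capitals mark the matches, read 5′ to 3′ on the gene's strand. Atp5a1 has no window in the table. Of Atp5c1 the window with the larger number of different motifs is shown.
Atp5b (chr10:128083057-128083356, plus strand): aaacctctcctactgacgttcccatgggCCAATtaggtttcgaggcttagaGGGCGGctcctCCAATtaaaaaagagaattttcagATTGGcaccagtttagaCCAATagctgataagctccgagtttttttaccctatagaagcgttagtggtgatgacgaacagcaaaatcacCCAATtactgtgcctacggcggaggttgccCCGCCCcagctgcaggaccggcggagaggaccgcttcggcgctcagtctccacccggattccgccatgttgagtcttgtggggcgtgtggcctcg
Atp5c1 (chr2:10080383-10080682, minus strand): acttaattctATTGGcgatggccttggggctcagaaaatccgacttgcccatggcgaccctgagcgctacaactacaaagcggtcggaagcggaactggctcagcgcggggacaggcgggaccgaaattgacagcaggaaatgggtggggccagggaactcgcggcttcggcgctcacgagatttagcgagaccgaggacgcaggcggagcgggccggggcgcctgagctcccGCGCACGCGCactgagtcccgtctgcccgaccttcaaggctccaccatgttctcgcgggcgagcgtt
Cox5a (chr9:57520982-57521281, plus strand): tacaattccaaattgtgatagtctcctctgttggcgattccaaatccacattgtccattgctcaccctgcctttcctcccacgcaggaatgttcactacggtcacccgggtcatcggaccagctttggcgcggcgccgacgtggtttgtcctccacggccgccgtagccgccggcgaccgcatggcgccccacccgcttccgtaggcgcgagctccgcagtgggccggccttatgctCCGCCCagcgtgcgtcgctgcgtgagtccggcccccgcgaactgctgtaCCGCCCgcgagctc
Ndufa12 (chr10:94198785-94199084, plus strand): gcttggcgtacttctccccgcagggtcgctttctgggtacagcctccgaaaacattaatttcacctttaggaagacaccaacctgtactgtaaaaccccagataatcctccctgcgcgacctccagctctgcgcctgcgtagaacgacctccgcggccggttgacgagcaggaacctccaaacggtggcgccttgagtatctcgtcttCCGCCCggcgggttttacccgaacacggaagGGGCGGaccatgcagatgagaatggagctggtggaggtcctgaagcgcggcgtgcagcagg
The Atp5b window held CCAAT 5 times, the most among the windows shown. This count, picked because it was the largest, was reached by 89 of 32851 windows of the table (0.271%), the other member being Atp5g1. The Atp5b window also held GGGCGG or its reverse complement at 199 and 45 bases before the start. Atp5c1 held an NRF1 match 17 bases before the start. Cox5a and Ndufa12 held only SP matches, 2 each.

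The shares of windows with NRF1, ETS and YY1 letters were larger over the members than over the whole table. NRF1 letters were in 20 of 83 member windows (24.1%) and 4.60% of all windows, ETS letters in 18 (21.7%) and 8.86%, and YY1 letters in 13 (15.7%) and 2.75%. SP letters were in 36 (43.4%) and 35.7%, CCAAT in 36 (43.4%) and 37.4%, and ERR letters in 4 (4.82%) and 1.56%. These are counts of letters, with no test, and they say nothing of binding. Of the 4 called members with a window, 1 held NRF1 letters and none held ETS, YY1 or ERR letters.

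In complex IV, 1 of 11 tested subunits was higher in metastases, with a median log2 fold change of 0.22. Cox5a, a subunit on the matrix side of the enzyme (chr9:57521274-57532426, plus strand), had 164, 45.5, 33.9, 23.5 and 49.7 CPM in metastasis libraries 1 to 5, against 25.3, 11.2, 8.80, 12.3 and 4.51 CPM in normal libraries 1 to 5. Metastasis library 1 was the highest by far, and only metastasis library 4 lay below a normal library, library 1. The means were 63.3 ± 57.1 CPM in metastases and 12.4 ± 7.80 CPM in normal lung (SD, n = 5 each), 5.10-fold higher in metastases (2.35 ± 0.76 SE, edgeR adjusted p = 0.0289). Without metastasis replicate 1 the value was 1.596 (adjusted p = 0.161), and without any 1 of normal replicates 2 to 5 the adjusted p was 0.0586 to 0.0725. Metastasis library 1 also had the highest summed platelet marker level (12105 CPM, against 670 to 2491 CPM in the other metastasis libraries). Among metastases, endothelial markers (5058 CPM) and cell division genes (2428 CPM) were highest in that library too. Leukocyte, fibroblast and epithelial markers were highest in metastasis library 2. The part of these cells was not tested. Other genes share 13.6% of the 100-base windows of the Cox5a transcript.

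The other complex IV subunits passed no test in edgeR. Cox6a1, the broadly expressed form of a small subunit, had 21.7, 32.9, 18.6, 12.3 and 14.9 CPM in metastasis libraries 1 to 5, against 98.5, 57.1, 42.6, 16.5 and 23.5 CPM in normal libraries 1 to 5. Its ranges overlapped in the lower normal libraries (-1.25 ± 0.72 SE, adjusted p = 0.245). Cox6c, a small structural subunit, averaged 22.8 ± 12.5 CPM in metastases and 7.59 ± 3.20 CPM in normal lung (1.59 ± 0.89, 0.229), and DESeq2 called it (1.71, 0.0127). Ndufa4, once assigned to complex I and now to complex IV, averaged 21.3 ± 14.5 CPM in metastases and 43.5 ± 31.0 CPM in normal lung (-1.03 ± 0.76, 0.381). Cox4i1, a subunit that binds adenine nucleotides, was at 0.22 (0.914), Cox7a2 at 0.84 (0.624), Cox6b1 at -0.13 (0.945) and Cox8a at -0.44 (0.787).

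Complex I, the largest complex, had 1 of 35 tested subunits higher in metastases and a median log2 fold change of 0.49. Its 7 core subunits, among them those that carry the flavin and the iron-sulphur clusters, had a median of -0.02, a range of -0.46 to 1.33 and no adjusted p below 0.470. Ndufa12, an accessory subunit of the matrix arm (chr10:94198720-94221443, plus strand), had 31.1, 2.56, 32.7, 15.7 and 7.02 CPM in metastasis libraries 1 to 5, against 1.03, 0.586, 0.118, 1.51 and 3.81 CPM in normal libraries 1 to 5. Metastasis library 2 lay below normal library 5, and the other 4 metastasis libraries lay above all normal ones. The means were 17.8 ± 13.7 CPM in metastases and 1.41 ± 1.44 CPM in normal lung (SD, n = 5 each), 12.6-fold higher in metastases (3.66 ± 1.21 SE, edgeR adjusted p = 0.0334). The call was lost without any 1 of metastasis replicates 1, 3 and 4 and normal replicates 1 to 4 (adjusted p 0.0505 to 0.0720), and the value was 4.43 without normal replicate 5. Other genes share 17.7% of the 100-base windows of its transcript.

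The accessory subunits of the membrane arm lay on both sides of 0. Ndufb8 had 1.86, 9.40, 7.79, 5.46 and 5.64 CPM in metastasis libraries 1 to 5, against 11.5, 29.8, 12.3, 16.4 and 28.8 CPM in normal libraries 1 to 5. Every metastasis library lay below every normal library, yet edgeR did not call it (-1.71 ± 0.93 SE, adjusted p = 0.215), while DESeq2 did (-1.66, 0.0163). Ndufb7 averaged 4.73 ± 4.80 CPM in metastases and 0.410 ± 0.430 CPM in normal lung (3.52 ± 1.52, 0.108), and DESeq2 called it too (3.52, 0.00572). Ndufa11 was at -1.53 (0.417). Ndufb9 had the highest mean FPKM of complex I over all 10 libraries, though in neither group alone, and was at 0.65 (0.631). The 30 subunits of complex I not named here by value lay between -1.31 and 2.19, 19 above 0 and 11 below, with adjusted p-values of 0.209 and above.

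None of the 7 tested complex I assembly factors was called by edgeR or DESeq2, and 0 had an unadjusted p under 0.05. Of all tested genes, 17.7% were higher and 13.7% lower at that threshold. Ndufaf4, an early assembly factor, had 30.1, 50.8, 232, 29.6 and 54.1 CPM in metastasis libraries 1 to 5, against 35.2, 15.4, 75.2, 32.2 and 53.7 CPM in normal libraries 1 to 5. Metastasis library 3 alone was high (0.91 ± 0.67 SE, adjusted p = 0.381). Ndufaf2, a paralogue of Ndufa12 that holds its place during assembly, was at 0.67 (0.736), and 65.6% of its exon bases overlap another gene. Ndufaf5 was at 2.17 (0.264), Ndufaf3 at -1.78 (0.381) and Ndufaf6 at -1.33 (0.581), and limma on log2(FPKM + 1) called Ndufaf3 (-2.22, 0.0394).

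Complexes II and III had no called member in edgeR (0 of 4 and 0 of 8). At an unadjusted p under 0.05, where 17.7% of all tested genes were higher and 13.7% lower, they held Uqcr10 alone. DESeq2 called Uqcr10 and Uqcrq, both of complex III. Sdha, the flavoprotein of complex II that also works in the citrate cycle, had 73.0, 149.9, 30.3, 131 and 141 CPM in metastasis libraries 1 to 5, against 57.6, 87.6, 154, 329.6 and 109 CPM in normal libraries 1 to 5. Normal library 4 was the highest and metastasis library 3 the lowest (-0.49 ± 0.53 SE, edgeR adjusted p = 0.581). The membrane anchors Sdhc and Sdhd were at 0.71 (0.618) and -1.04 (0.488), and the median of the 4 genes was -0.40. In complex III the median was 0.51. Uqcr10, a small subunit, had 17.2, 1.70, 119, 4.35 and 39.0 CPM in metastasis libraries 1 to 5, against 4.21, 15.0, 1.48, 4.38 and 11.9 CPM in normal libraries 1 to 5. The groups overlapped, with 3 metastasis libraries above all normal ones (2.29 ± 1.04, 0.128), with DESeq2 at 2.51 (0.0376). Uqcrq, a ubiquinone-binding small subunit, was at 2.05 (0.255), and the large core proteins Uqcrc1 and Uqcrc2 were at -0.58 (0.758) and -0.69 (0.484).

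**Figure D3:**
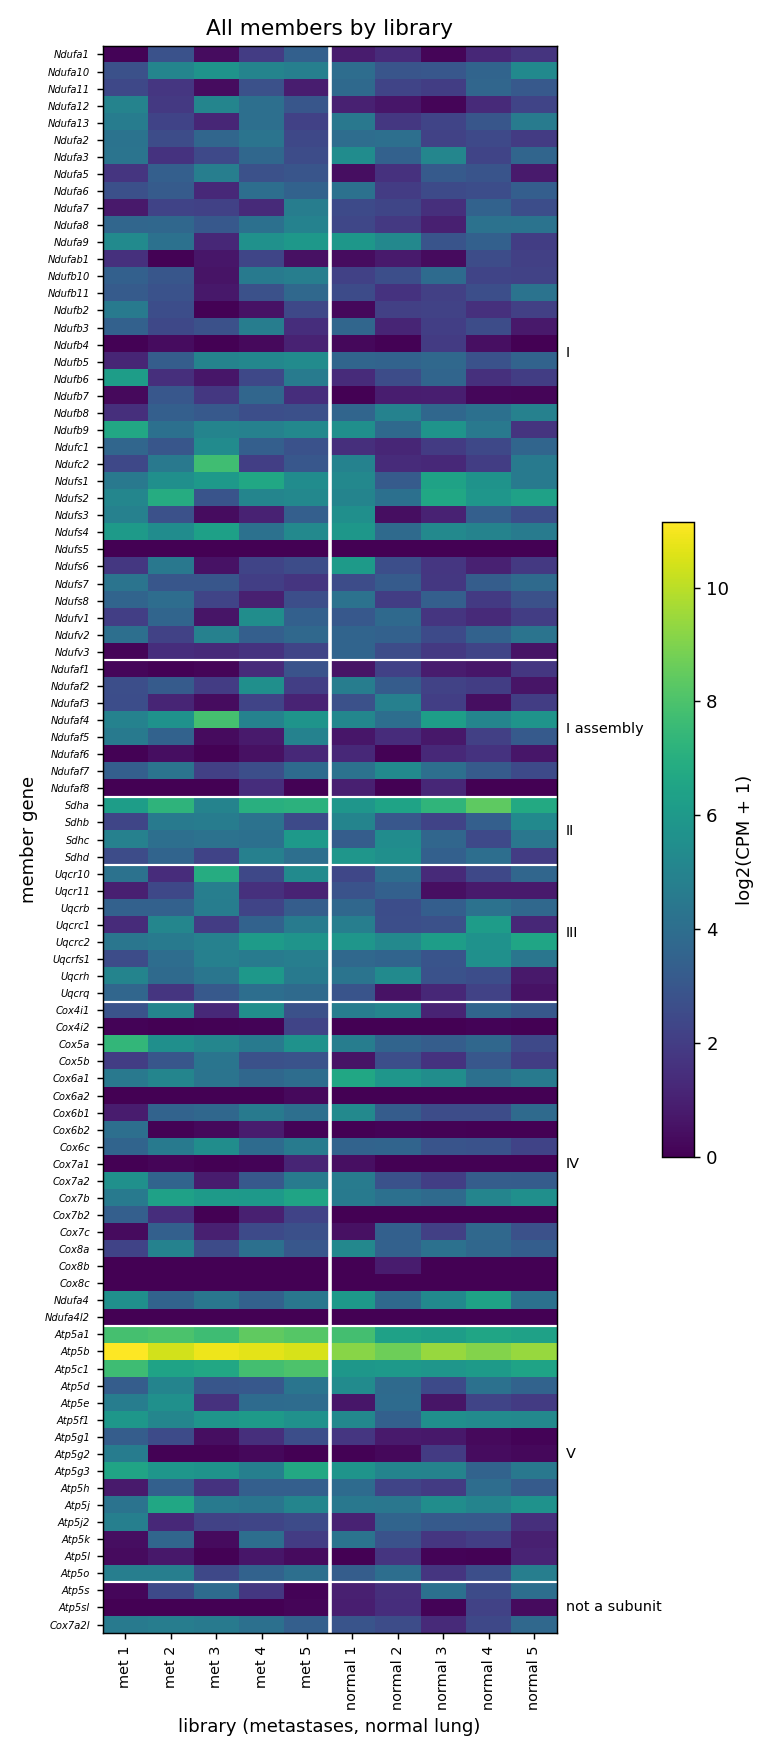
Level of all 93 members (rows, grouped by complex) in each library (columns, 5 metastases left of the white line and 5 normal lungs right of it) as log2(CPM + 1) on a colour scale. Atp5b is the brightest row in every library, and most other members lie far below it and vary between libraries of the same group.

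Summed over subunit genes, complex V alone had ranges that did not overlap between the groups. Its genes added up to 2998, 2015, 2333, 2377 and 2251 CPM in metastasis libraries 1 to 5, against 1052, 692, 959, 839.7 and 1022 CPM in normal libraries 1 to 5. Without Atp5b the sums were 726, 666, 456, 747 and 818 CPM in metastasis libraries 1 to 5, against 480.4, 276, 274, 294 and 333 CPM in normal libraries 1 to 5. With Atp5b the groups were far apart, and without it only normal library 1 reached above a metastasis library, library 3. The sums without Atp5b still hold the called genes Atp5a1 and Atp5c1. These averaged 267 and 176 CPM in metastases and 112 and 66.6 CPM in normal lung. The complex V sums thus largely restate the called genes and do not describe the complex as a whole. The sums of the other complexes overlapped between the groups. Complex I came to 568 ± 76.8 CPM in metastases and 410.0 ± 132 CPM in normal lung, and complex II to 161 ± 63.7 CPM in metastases and 209 ± 84.3 CPM in normal lung (SD, n = 5 each). Complex III came to 168 ± 67.0 CPM in metastases and 142 ± 35.9 CPM in normal lung, and complex IV to 274 ± 54.0 CPM in metastases and 204 ± 83.0 CPM in normal lung. A sum weights its most abundant genes, and no p is given for sums over chosen members.

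**Figure D4:**
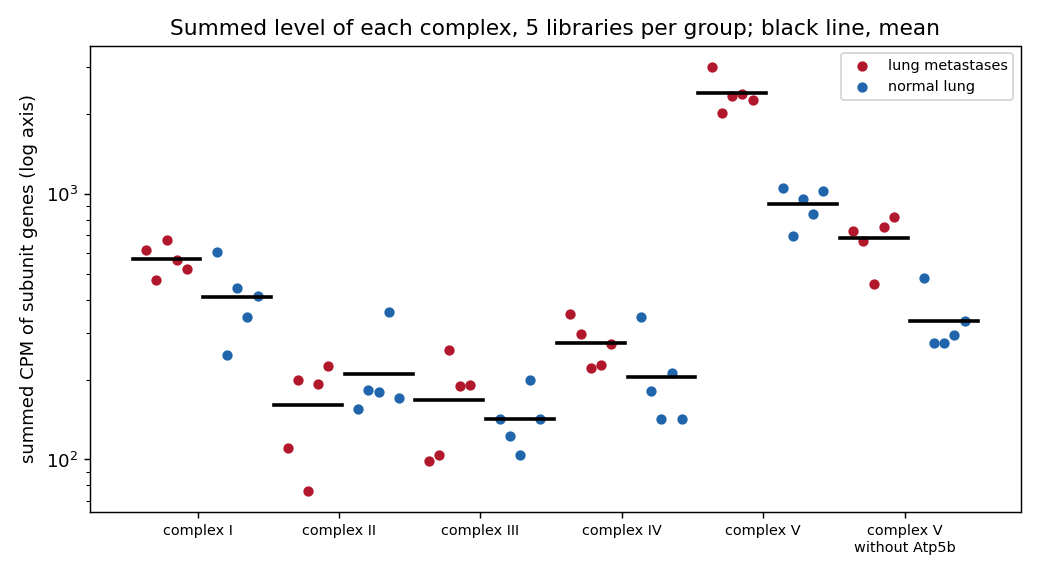
Summed CPM of the subunit genes of each respiratory complex (vertical log axis), each library as a point, metastases in red left of normal lung in blue, black lines the means. Complex V averages 2395 CPM in metastases and 913 CPM in normal lung, and the ranges of complexes I to IV overlap.

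Several complex IV and complex V subunits have a second gene with a narrower tissue range, and these rarely reached the filter. Cox6a2, Cox7a1 and Cox8b are the heart and skeletal muscle forms, Cox6b2 and Cox8c are known from testis, and Cox4i2 is known from lung. Cox7b2 had 275, 117, 0, 34 and 105 counts in metastasis libraries 1 to 5, against 1, 1, 0, 1 and 0 counts in normal libraries 1 to 5. All of its libraries above 1 count were metastases. It missed the filter and was called by DESeq2 (8.23, adjusted p = 9.84e-07), a size that rests on 1 count in each of 3 normal libraries. Cox6b2 had 473, 3, 4, 27 and 2 counts in metastasis libraries 1 to 5, against 0, 7, 2, 1 and 0 in normal libraries 1 to 5. Nearly all of its counts came from metastasis library 1, and edgeR without a filter, which called 11.5% of all genes higher, called Cox6b2 (6.59, 0.0293) and Cox7b2 (7.82, 0.0130). Cox4i2 had 110 counts in metastasis library 5 and 0 to 3 in the other 9 libraries. The muscle forms were at or near 0 in most libraries. Cox6a2 had 6 counts in metastasis library 5 and 0 elsewhere, Cox7a1 had 0 to 35 counts in metastases and 0 to 24 in normal lung, and Cox8b had 0 counts in all metastases and 0 to 69 in normal lung. Of the remaining untested members, Ndufaf8 had 0 to 59 counts in metastases and 0 to 62 in normal lung, and Atp5g2 had 0 to 735 counts in metastases and 3 to 119 in normal lung. Cox8c, Ndufa4l2 and the complex I subunit Ndufs5 were listed at 0 counts in all 10 libraries. For Ndufs5 other genes share 19.8% of the 100-base windows of its transcript, and its counts are uncertain.

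No isoform share passed an exact permutation test of the difference between the groups. Of 8 shares listed, 7 had at least 20 family counts in every library and were tested, two-sided, over the 252 splits of 5 against 5, whose smallest possible p is 0.00794. The shares of Ndufa4l2, at 0 in every library, and Cox6a2, above 0 in metastasis library 5 alone, could not pass whatever the groups. Both still count in the adjustment over 7. Atp5g1 made up 5.34 ± 2.83% of the counts of the 3 c-subunit genes in metastases and 2.18 ± 1.40% in normal lung (SD, n = 5 each; exact p = 0.0635, adjusted 0.389 over the 7 shares). Cox6b2 made up 95.2% of Cox6b counts in metastasis library 1 and 0 to 3.30% in the other 9 libraries (exact p = 0.111, adjusted 0.389). Cox4i2 made up 39.9% of Cox4 counts in metastasis library 5 and 0 to 3.33% elsewhere (exact p = 0.238, adjusted 0.417). Atp5g2 made up 19.97% of c-subunit counts in metastasis library 1 and 0 to 8.19% elsewhere (exact p = 0.960, adjusted 1). In each of these last 3 cases a single metastasis library held the high share. Ndufa4l2 was 0 of 351 to 4095 Ndufa4 family counts per library, which allows a share of up to 0.855%.

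**Figure D5:**
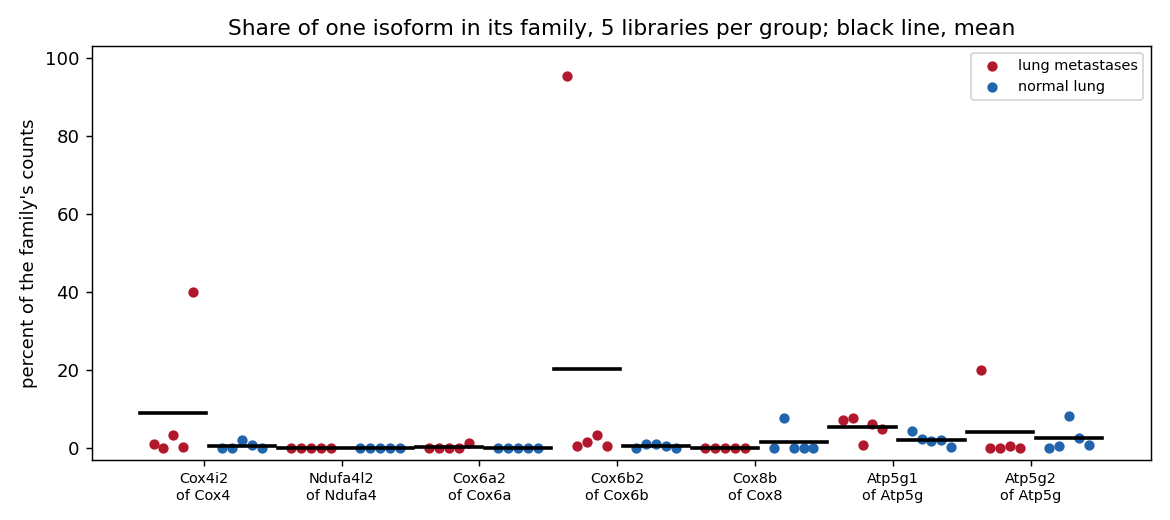
Share of the named gene in the counts of its subunit family, in percent on the vertical axis, for the 7 shares tested, each library as a point, metastases in red left of normal lung in blue, black lines the means. Single metastasis libraries stand at 39.9% for Cox4i2, 95.2% for Cox6b2 and 19.97% for Atp5g2, and nearly all other points lie close to 0.

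The 3 members that are no subunits were not called by edgeR. Cox7a2l, which helps complexes III and IV associate, averaged 19.4 ± 6.60 CPM in metastases and 6.05 ± 4.19 CPM in normal lung (1.68 ± 0.94 SE, adjusted p = 0.232), and DESeq2 called it (1.75, 0.0217). Atp5s was at -0.90 (0.698). Atp5sl had 0, 0, 0, 0 and 3 counts in metastasis libraries 1 to 5, against 59, 145, 4, 140 and 10 counts in normal libraries 1 to 5. It was near 0 in every metastasis library and missed the filter, and DESeq2 called it lower (-5.97, 0.00277).

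Members varied from library to library in both groups, and so did the tested genes as a whole. Among tested members, 25 of 81 (30.9%) differed over 10-fold between the highest and the lowest metastasis library after adding 1 CPM, and 11 (13.6%) did so between normal libraries, against 38.8% and 23.1% of all tested genes. The biological coefficient of variation of a member was 1.05 at the median, against 0.954 over all tested genes. The median SE on the log2 scale was 1.04, against 0.932. The median SD within groups of log2(CPM + 1) was 1.04 over the members and 1.15 over all tested genes. Member transcripts were short, 983 bases at the median against 3244 over all tested genes. With a trend on transcript length and GC content removed, the same 5 members were called (12.2% of all genes were called higher) and the median log2 fold change of the members was 0.20.

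Genes that build, regulate or feed the chain were counted in the edgeR fit, in which 12.0% of all genes were called higher and 8.22% lower. Of 36 tested assembly factors 4 were higher and 1 lower. On the higher side the groups did not overlap in 3 of the 36 (8.33%, against 8.50% of all tested genes), Coa5 among them. Coa5, needed for complex IV assembly, averaged 239 ± 122 CPM in metastases and 31.8 ± 10.6 CPM in normal lung (2.91 ± 0.50 SE, edgeR adjusted p = 0.000236). Lrpprc, which stabilises mitochondrial messenger RNAs, was at 1.97 ± 0.53 (0.00979), and Cox17, a copper carrier to complex IV, at 3.14 ± 0.96 (0.0224). The complex III assembly factors Uqcc2 and Uqcc3 were at 5.42 ± 1.63 (0.0197) and -5.31 ± 1.76 (0.0343), both below 10 CPM on average in either group. Uqcc2 had 16 to 314 counts in metastases and 1 to 3 in each normal library. It passed the low-count filter through the metastases alone, so its call and its size are uncertain. Uqcc3 had 11, 1, 4, 2 and 0 counts in metastasis libraries 1 to 5, against 92, 60, 725, 4 and 234 in normal libraries 1 to 5.

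Of 74 tested genes of the mitochondrial ribosome 5 were higher (Mrps35, Mrpl43, Mrpl30, Mrpl39 and Mrpl52) and none was lower, with a median of 0.57. At an unadjusted p under 0.05 the same edgeR test had 8 higher and 1 lower, beside 17.7% and 13.7% of all tested genes. Mrps35 averaged 25.2 ± 27.5 CPM in metastases and 0.959 ± 0.792 CPM in normal lung (4.71 ± 1.27 SE, adjusted p = 0.00991). Metastasis libraries 1 and 2 (1.56 and 1.61 CPM) lay below normal library 3 (2.07 CPM). Mrpl43 was at 4.09 ± 1.22 (0.0187), and metastasis library 3 held most of its level. It had 10.4, 1.03, 321, 12.1 and 2.86 CPM in metastasis libraries 1 to 5, against 0.995 to 9.18 CPM in normal lung. Of 16 citrate cycle genes 2 were higher. These were Cs, citrate synthase, at 250.5 ± 94.5 CPM in metastases and 86.9 ± 54.1 CPM in normal lung (1.53 ± 0.46, 0.0207), and Dld, a shared subunit of the oxoacid dehydrogenases, at 1.72 ± 0.49 (0.0141). None of 14 tested regulators was called, with Gabpa at 0.29 (0.710) and Gabpb1 at -0.35 (0.734). At an unadjusted p under 0.05, 1 regulator was higher and 0 lower, beside 17.7% and 13.7% of all tested genes. Cycs, cytochrome c, was at 0.40 (0.870).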

How the data were processed

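RNA of sorted CD31+/CD45- cells was sequenced as paired 100 base reads after amplification with the Ovation RNA-Seq V2 kit, per the labels' protocols. Per the submitters' processing notes, the tools were HTSeq 0.6.1, TopHat2 2.0.13, DESeq2 1.6.3 and Cufflinks 2.2.1, with the builds GRCm38 and mm10. Gene annotation and strand setting were not given in the sources used here. The authors deposited raw counts for each gene and library, and a table of FPKM values for 24460 genes. Rows that name no gene were left out (the no-feature row held 57.9 to 73.7% of all rows' counts in metastases and 55.4 to 64.7% in normal lung). Without strand, overlapping genes cannot be told apart, and 12 members share over 10% of their exon bases with another gene.

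Counts were filtered with filterByExpr, scaled by TMM and fitted with edgeR 4.0.16 in R 4.3.3 (quasi-likelihood F test, robust, no covariate, two-sided) on all 10 libraries, with Benjamini-Hochberg adjustment over 11823 genes and a threshold of 0.05. CPM are on TMM-scaled libraries. The SE of a log2 fold change is its size divided by the root of its F value. The code of the fit was checked on counts simulated under its own model. That check does not show how well the model describes these libraries. Alternatives were DESeq2 1.42.0, limma 3.58.1 on FPKM, other scalings and filters, a length and GC correction, sets of libraries and each library left out. Positions and transcript lengths come from GENCODE M21 (GRCm38), which matched 92 of 93 members.

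Named members are those called, the 2 largest changes each way and the highest mean FPKM in each complex, and isoform families, and in each companion list the 2 largest called changes each way. The other called companion genes, Atp5d and the other untested members were named after their values were seen. Members and lists were chosen with earlier results of these data known. Figures were drawn with matplotlib 3.10.9.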

Additional observations from a re-analysis of the deposited data

Results flagged for a closer look

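Within the 5 libraries of a group, 10 values stood far from the other 4 (a gap of over 0.710 of the group's range). Of the 98 groups examined, chance flags about 1 in 20. Normal library 1 had 7.83 log2(CPM + 1) of Atp5a1, where the other normal libraries had 6.19 to 6.56. Metastasis library 1 had 0.858 log2(CPM + 1) of Cox6b1, where the others had 3.57 to 4.58, and metastasis library 3 had 7.87 of Ndufaf4, where the others had 4.94 to 5.78. The summed level of complex I assembly factors was 239 CPM in metastasis library 3 and 73.3 to 109.5 CPM in the other metastases, and Ndufaf4 is part of that sum. The complex II sum was 359 CPM in normal library 4 and 154 to 183 CPM in the other normal libraries.

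The isoform shares that stood apart were 39.9% for Cox4i2 and 1.40% for Cox6a2 in metastasis library 5, 95.2% for Cox6b2 and 19.97% for Atp5g2 in metastasis library 1, and 7.67% for Cox8b in normal library 2. In each case the other 4 libraries of the group lay at or below 3.33%.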

How the results depend on the processing

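Members called higher numbered 13 with DESeq2 (14.1% of all genes), 11 with limma on log2(FPKM + 1) (13.1%) and 10 on log2(FPKM + 0.1) (13.1%). They numbered 3 with upper-quartile scaling (10.9%), 1 at a threshold of 0.01 (7.35%) and 2 without metastasis replicates 4 and 5 (9.08%). Libraries 3 to 5 alone gave 2 (9.29%), libraries 1 and 2 alone 0 (3.87%), and fits with 1 library left out 2 to 5 (10.7 to 11.7%). Length and GC trend removal together with the replicate block gave 2 (11.8%). The member median there was 0.012 and the all-gene median -0.18. Members called lower numbered 2 with DESeq2, 1 with either limma fit and 0 to 1 with 1 library left out (Atp5sl without metastasis replicate 5). Of all genes, 9.84% were called lower with DESeq2, 12.3 and 12.4% with the limma fits and 6.66% without metastasis replicate 5. The replicate numbers are not known to pair the libraries: same-numbered deviations correlated at -0.01 to 0.18, and not every library correlated best with its own number. With the replicate block 4 members were called higher, Ndufa12 being lost (adjusted p = 0.0588), and 0 lower, beside 12.1% and 9.98% of all genes. Atp5b was called in every setting but libraries 1 and 2 alone. The all-gene median shifted by 0.26 with library totals and by -0.15 with upper-quartile scaling; the median of the members less that of all genes was 0.43 and 0.42 there, and 0.40 as reported. Upper-quartile scaling ended the calls of Atp5c1 (0.0523) and Ndufa12 (0.0516), and the fit without a filter those of Atp5a1 (0.0569) and Atp5c1 (0.0549).

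Among the members followed across settings, signs turned only in those that edgeR did not call in the main fit. Uqcr10 is among these, though DESeq2 called it. The other 46 tested members were not followed across settings. Cox4i1 was at -0.091 with length and GC removal and the replicate block, -0.028 with the replicate block, -0.56 in libraries 1 and 2, -0.25 without metastasis replicates 4 and 5, -0.016 (log2(FPKM + 1), with or without a filter) and -0.018 (log2(FPKM + 0.1)) in the limma fits and -0.44 to 0.63 with 1 library left out. Cox6b1 was at 0.012 with length and GC removal and the replicate block, 0.25 with the replicate block, 0.26 with library totals, 1.10 in libraries 3 to 5 and -0.44 to 0.62 with 1 library left out. Atp5l was at 0.49 with limma without a filter, 0.17 with the replicate block and -1.39 to 0.032 with 1 library left out. Ndufaf2 was at -1.31 in libraries 1 and 2, -0.60 without metastasis replicates 4 and 5 and -0.72 to 1.70 with 1 library left out. In libraries 1 and 2 Atp5s was at 0.83, Sdha at 0.63, Sdhc at -0.17, Uqcr10 at -0.011 and Uqcrc1 at 0.21, and Sdhd was at 0.74 in libraries 3 to 5. With 1 library left out, Ndufaf4 ranged over -0.070 to 1.19, Sdha over -0.73 to 0.0037 and Uqcrc1 over -1.17 to 0.56. The Atp5g2 share difference was -3.65 points in libraries 3 to 5, -2.27 to 3.12 points with 1 library left out and -1.73 as a log2 ratio. The cause of these changes was not tested. Low counts and the spread between libraries limit what single members can show at n = 5.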
